A study of Rattus norvegicus with 36 samples.

Results

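The genes described here encode enzymes that oxidise or conjugate foreign compounds, steroids, bile acids and fatty acids. They were taken as every gene of the count table whose symbol begins with Cyp1, Cyp2, Cyp3, Cyp4, Ugt1, Ugt2, Sult1, Gsta or Gstm followed by a letter or digit and whose mean over the 18 ileum or the 18 colon libraries reached 0.5 CPM, the count scaled to a fixed library size. Of 24773 genes, 85 had such a symbol and 49 were kept. These were 25 cytochrome P450 genes of families 1 to 4, 9 P450 genes of other families that share the prefixes (such as Cyp17a1 and Cyp27a1), 3 UDP-glucuronosyltransferases, 3 sulfotransferases, 5 alpha-class and 4 mu-class glutathione S-transferases. Of the 49, 48 reached 0.5 CPM in ileum, 42 in colon and 41 in both. Just inside the limit lay Cyp2c23 at 0.754 CPM in ileum and Cyp26a1 at 0.67 CPM in colon, and just outside it Cyp2w1 at 0.413 CPM in colon and Cyp2ab1 at 0.388 CPM in ileum.

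The tissue came from male UCD-T2DM rats, a line that becomes obese and develops type 2 diabetes spontaneously and from many genes. D3M rats (labelled LD) had been diabetic for 88 to 116 days and were 172 to 173 days old. D1M rats (labelled RD) had been diabetic for 22 to 23 days and were 168 to 172 days old. ND rats (labelled ND) were not yet diabetic and were 70 days old. Each group held 6 rats, and distal ileum and proximal colon of each rat gave 1 library per tissue, 36 in all, from whole tissue with all its cell layers. Because ND rats were younger, age and diabetes cannot be told apart in any comparison with ND. D3M and D1M rats, close in age, differed in the age at which diabetes began as well as in its duration. They also differed in body weight (472 to 575 g in D3M, 597 to 663 g in D1M) and in fasting glucose (165 to 330.6 mg/dl in D3M, 93.6 to 178.6 mg/dl in D1M).

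Cytochrome P450 enzymes are haem proteins that insert oxygen into their substrates with electrons from the reductase Por, and the products are often joined to glucuronic acid, sulfate or glutathione by the transferases, after which transporters such as Abcg2 pump them out. In the small intestine these enzymes sit mainly in villus enterocytes, where they act on drugs and dietary compounds before these reach the liver. Members of the CYP3A subfamily are known targets of the pregnane X receptor (PXR, gene Nr1i2), and Cyp1a1 is the classical target of the aryl hydrocarbon receptor (AhR).

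Library totals ran from 12279059 to 21510043 counts in ileum and from 10024041 to 18299050 in colon. Levels are given as CPM on library sizes corrected by the trimmed mean of M-values (TMM), scaled within each tissue, so that a level in colon and one in ileum were scaled separately. CPM is not corrected for gene length, and levels of different genes are therefore not compared. Differences are log2 fold changes ± SE from edgeR's quasi-likelihood test with the flow cell in the model, called at a Benjamini-Hochberg false discovery rate (FDR) under 0.05 over all genes tested. In whole tissue, fewer cells of a type and less RNA per cell cannot be told apart.

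Both tissues carried their own markers, but 2 ND libraries held RNA of the other tissue. Summed over 6 ileal identity genes, the library from the colon of ND rat K4028 had 11609 CPM, while no other colon library passed 46.9 CPM. Summed over 6 colonic identity genes, the library from the ileum of ND rat K4040 had 4664 CPM, against 1860 CPM in D3M rat P762 and less in every other ileum library. These libraries were kept, and the main results that rest on them are given with and without them. Among the colon libraries of ND rats, K4028 was highest for Cyp17a1 (141 CPM, against at most 2.57 CPM in the other 5), Cyp3a18 (42.9 CPM), Cyp2d4 (78.4 CPM) and Ugt2a1 (8.04 CPM). Among the ileum libraries of ND rats, K4040 was highest for Cyp2c24 (206 CPM, against at most 40.3 CPM in the other 5) and Cyp1a1 (117 CPM). Cyp1a1 was not called between the tissues (log2 fold change -0.46, FDR 0.489), and the colon library of K4040 had 0.71 CPM of it. The source of its level in the ileum of K4040 was not tested. The plot of members in the mixed libraries shows both libraries standing apart from the rest of their group.

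**Figure D1:**
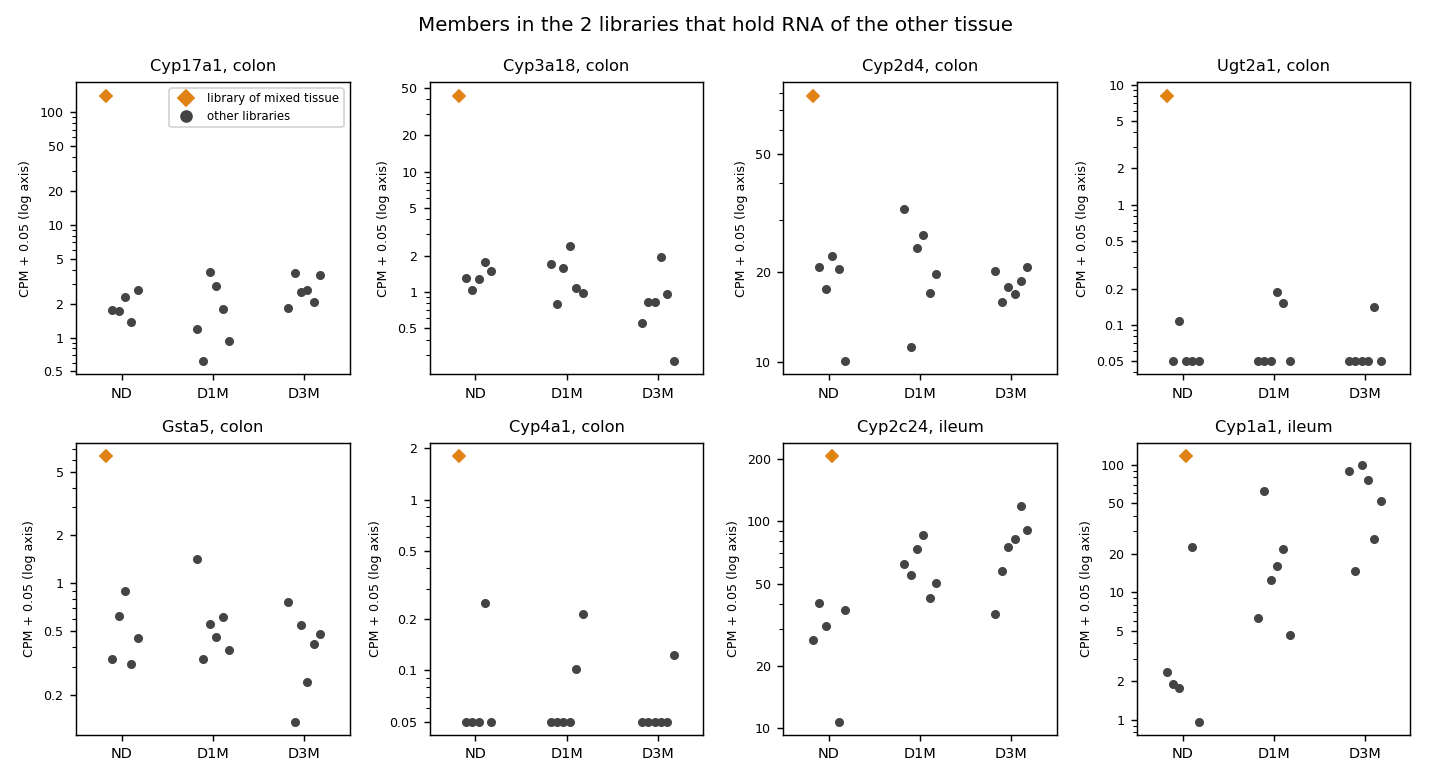
Level of 6 members in colon and 2 members in ileum, in CPM plus 0.05 on a log axis, for each library of ND, D1M and D3M rats. Orange diamonds mark ND rat K4028 in the colon panels (Cyp17a1 at 141 CPM) and ND rat K4040 in the ileum panels (Cyp2c24 at 206 CPM), which lie above every other library of their group.

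In the ileum of D3M rats, 13 of the 48 members tested differed from ND, 9 higher and 4 lower. That is 27.1% of the members, where 12.5% of all 13026 genes tested were called, 8.31% higher and 4.22% lower. The median log2 fold change of the 48 was 0.02, beside -0.08 over all genes. The 9 that rose were Cyp4b1, both genes listed as Cyp3a9, Cyp2j4, Cyp27a1, Sult1b1, Cyp4f1, Cyp2d5 and Cyp2d4, and the 4 that fell were Ugt2a1, Cyp2u1, Sult1c2a and Gsta3. Of the 25 P450 genes of families 1 to 4, 7 rose and 1 fell, while of the 5 alpha-class transferases 1 fell and none of the 4 mu-class transferases was called. For 6 of the 13, the 6 D3M libraries and the 6 ND libraries did not overlap, and in 11 of the 13 the D1M mean lay between those of the other groups. Neither share is particular to the members: of all 1632 genes called in this comparison, 43.1% had D3M and ND libraries that did not overlap and 94.8% a D1M mean between the others, beside 46.2% and 84.6% of the 13.

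The count of 13 depended on the libraries in the fit. It was 5 without D1M rat K3986, 8 without ND rat K4028 and 17 without ND rat K4048. It was 4 with only the D3M and ND libraries and 5 without flow cell 2, which held no D3M library. In these last 2 fits fewer of all genes were called as well, and for the fits without K3986, K4028 or K4048 the share over all genes is not given. DESeq2 called 17 of the 47 members to which it gave an adjusted p, and 18% of all such genes. The balance of higher and lower members depended on the scaling. On plain library totals, 15 members were called, 5 higher and 10 lower (10.4% and 20.8% of the members). On that scale 3.81% of all genes were higher and 26.9% lower, and the median over all genes moved to -0.32. The members called higher on that scale were Cyp4b1, both Cyp3a9 genes, Cyp2j4 and Cyp27a1, and 9 of the 15 were shared with the TMM result. Without the 2 mixed libraries 10 members were called, 8 higher and 2 lower, where 7.81% of all genes were called. Of these 10, 9 were among the 13, Cyp1a1 was added, and Cyp4f1, Cyp2d5, Sult1c2a and Gsta3 were lost.

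**Figure D2:**
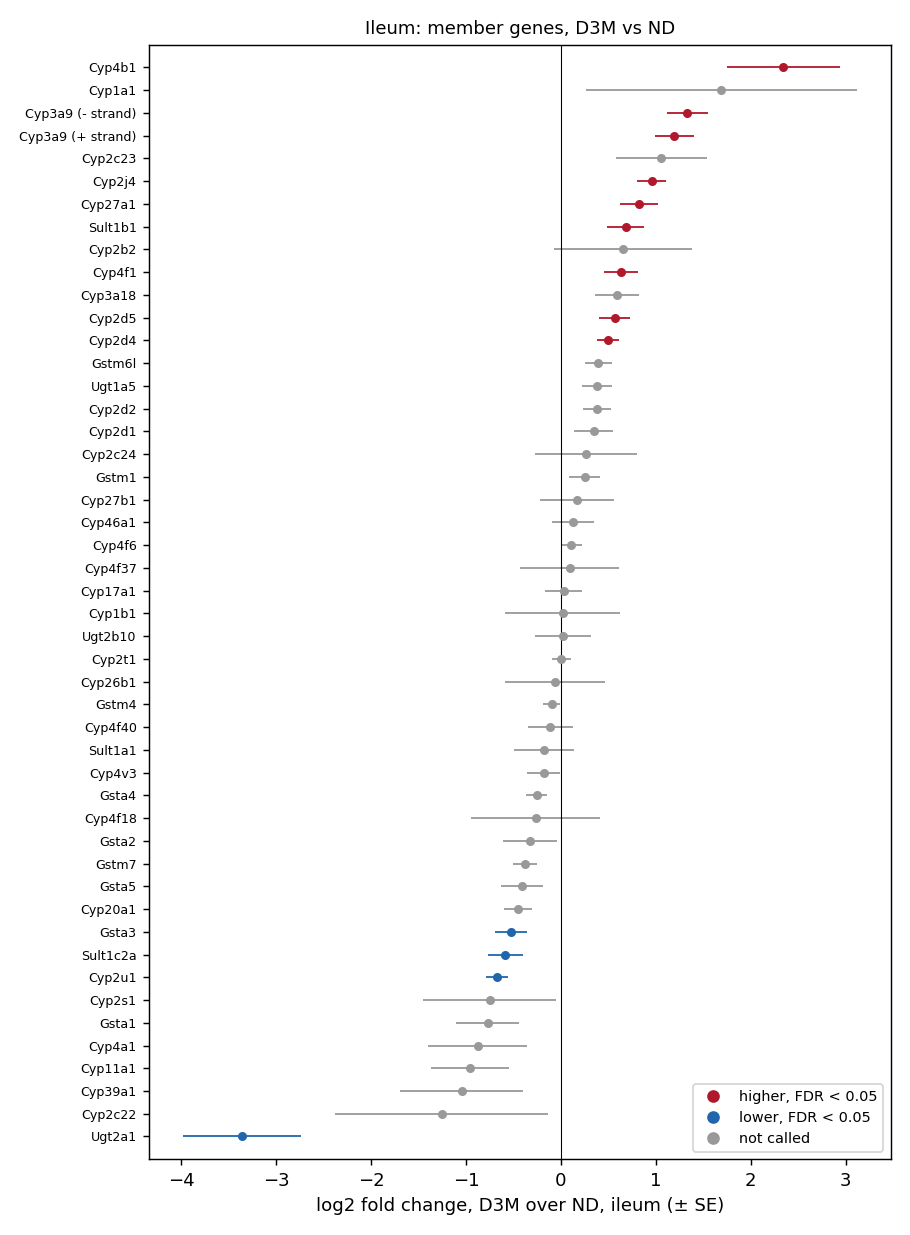
Log2 fold change (D3M over ND, points) with its SE (bars) for the 48 members tested in ileum, sorted by fold change. Red marks the 9 members called higher and blue the 4 called lower, with Cyp4b1 at 2.34 and Ugt2a1 at -3.36 at the ends.

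Markers of villus enterocytes also differed between D3M and ND ileum. Of 7 such genes 5 rose in D3M ileum and none fell, with a median log2 fold change of 0.93, and their summed level was 36325 to 53194 CPM in D3M libraries, against 17980 to 28540 CPM in ND libraries, with no overlap. Of 7 markers of epithelium as a whole, 3 rose and 1 fell, and of 6 ileal identity genes 5 rose. None of 5 smooth muscle markers and none of 10 B cell follicle markers was called. The B cell markers summed to 4.18 to 298 CPM (median 10.4) in D3M and 10.7 to 878 CPM (median 232) in ND libraries. With values this spread, the absence of a call does not show equal levels. Hepatocyte markers summed to at most 11.6 CPM in any library of either tissue. Of the 9 members that rose, 8 had their lowest D3M value in rat K3959, which also had the lowest D3M sum of villus markers. K3959 also had the highest D3M sum of B cell markers (298 CPM, against at most 16.8 CPM in the other D3M libraries). How often K3959 was lowest among all genes called higher was not counted. The part of the villus markers in the members' changes was not tested.

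The CYP3A enzymes oxidise steroids and a wide range of drugs. The table lists 2 genes as Cyp3a9, 1 on each strand of chromosome 12 (rn6): ENSRNOG00000046643 on the minus strand at chr12:19074583-19114399 and ENSRNOG00000001379 on the plus strand at chr12:18678594-18709397. The minus-strand gene had 816 to 1597 CPM (median 1153) in the ileum of D3M rats, against 299 to 592 CPM (median 461) in ND rats. Every D3M library lay above every ND library, and the D1M libraries, at 553 to 902 CPM (median 714), overlapped both groups. Its log2 fold change was 1.33 ± 0.22 (FDR 0.00245), and the call held in all 27 alternatives tried.

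The plus-strand gene had 267 to 700.3 CPM (median 462) in D3M rats, against 171 to 302 CPM (median 227) in ND rats. The lowest D3M library, from rat K3959, lay below the highest ND library, so that the groups overlapped. Its log2 fold change was 1.19 ± 0.21 (FDR 0.00307). It was also the only member called between D3M and D1M rats, where D1M libraries had 241 to 362 CPM (median 302) and the log2 fold change was 0.74 ± 0.18 (FDR 0.0443). That call was close to the limit: it held in 11 of 27 alternatives, over which the FDR ran from 0.0021 to 0.114, and it was lost when any of 12 of the 18 libraries was left out.

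The 2 Cyp3a9 genes did not keep one ratio across the gut. The minus-strand gene had 0.576 to 1.81 times the counts of the plus-strand gene in colon (median 0.936), against 1.44 to 3.05 times in ileum (median 2.28). The highest colon ratio came from the mixed library of rat K4028, and without it the colon ratios ended at 1.49, overlapping the lowest ileum ratio only slightly. Within ileum the ratio was 1.66 to 3.05 (median 2.50) in D3M rats and 1.44 to 2.27 (median 1.99) in ND rats, which overlap. RefSeq's rat assembly GRCr8 places Cyp3a9 on the minus strand and Cyp3a62, another CYP3A gene, on the plus strand of chromosome 12. Whether the plus-strand gene listed as Cyp3a9 is Cyp3a62 was not tested, and reads that match both genes may have been split between them, so that each gene's own level is uncertain.

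**Figure D3:**
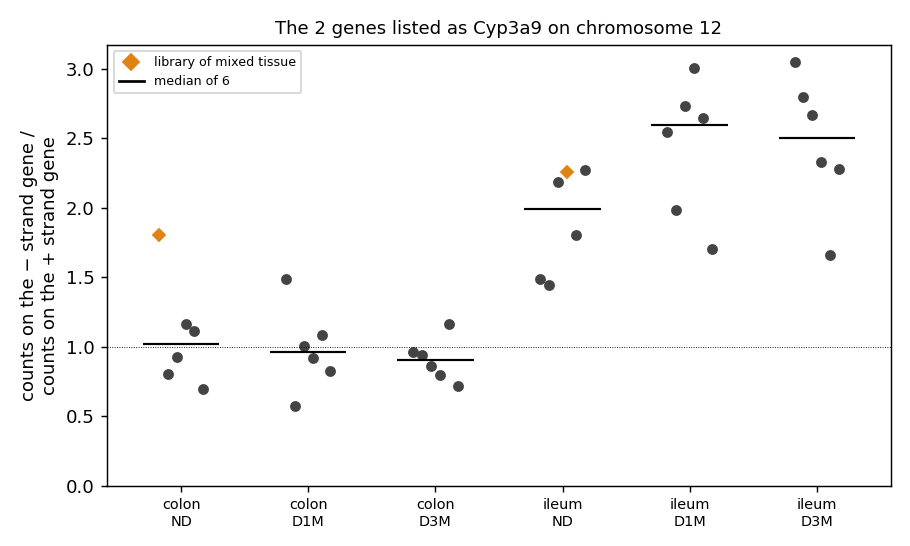
Counts on the minus-strand gene divided by counts on the plus-strand gene listed as Cyp3a9, by library (points) and group median (lines), in colon and ileum of ND, D1M and D3M rats. Colon medians lie between 0.902 and 1.02 and ileum medians between 1.99 and 2.59, and orange diamonds mark the 2 mixed libraries.

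Cyp3a18, a further CYP3A enzyme, was not called. It had 76.6 to 149 CPM (median 121) in D3M ileum and 44.3 to 105 CPM (median 69.0) in ND ileum, and the log2 fold change was 0.60 ± 0.23 (FDR 0.101). The groups overlapped, and the FDR was 0.0463 without ND rat K4048, 0.0496 with DESeq2 and 0.0246 with no flow cell term.

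Promoters of the 3 CYP3A genes are shown because Cyp3a9 moved most clearly of the CYP3A members, and that of Cyp2u1 because it fell in every alternative. Each is 300 bases long and spans the start of the gene, from RefSeq (GRCr8), 5′ to 3′ on the gene's strand. Capitals mark the letters GCGTG, the core of the xenobiotic response element that AhR binds, and the nuclear receptor hexamers AGGTCA and AGTTCA, each on either strand, so that a match on the opposite strand appears as its reverse complement.
Cyp3a9 (chr12:21960111-21960410, minus strand): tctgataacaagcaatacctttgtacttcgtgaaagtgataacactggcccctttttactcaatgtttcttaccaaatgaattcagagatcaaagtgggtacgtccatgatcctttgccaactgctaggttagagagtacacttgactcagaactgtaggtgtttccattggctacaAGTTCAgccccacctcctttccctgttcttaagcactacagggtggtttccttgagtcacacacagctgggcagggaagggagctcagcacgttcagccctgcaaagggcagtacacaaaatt
Cyp3a62 (chr12:21511513-21511812, plus strand): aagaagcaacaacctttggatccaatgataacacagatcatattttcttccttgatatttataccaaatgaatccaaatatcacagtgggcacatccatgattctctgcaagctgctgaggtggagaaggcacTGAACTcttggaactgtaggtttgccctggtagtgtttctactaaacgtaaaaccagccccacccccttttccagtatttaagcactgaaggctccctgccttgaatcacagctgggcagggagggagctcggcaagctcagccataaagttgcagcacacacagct
Cyp3a18 (chr12:13994062-13994361, plus strand): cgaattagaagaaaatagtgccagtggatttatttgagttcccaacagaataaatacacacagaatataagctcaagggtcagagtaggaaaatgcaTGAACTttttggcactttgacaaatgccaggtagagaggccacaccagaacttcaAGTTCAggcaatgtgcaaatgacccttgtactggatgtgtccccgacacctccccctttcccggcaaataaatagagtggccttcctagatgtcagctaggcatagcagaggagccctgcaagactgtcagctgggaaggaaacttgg
Cyp2u1 (chr2:222540940-222541239, minus strand): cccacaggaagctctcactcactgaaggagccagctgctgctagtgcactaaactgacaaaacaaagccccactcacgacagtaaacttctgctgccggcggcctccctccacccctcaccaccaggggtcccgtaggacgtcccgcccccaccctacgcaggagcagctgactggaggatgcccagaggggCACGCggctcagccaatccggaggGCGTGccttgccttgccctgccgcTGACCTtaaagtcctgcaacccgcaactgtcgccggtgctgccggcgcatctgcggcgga
Each of the CYP3A promoters held AGTTCA, at position -73 in Cyp3a9, -117 in Cyp3a62, and -153 and -98 in Cyp3a18, counted from the start. Cyp3a9 and Cyp3a62 shared 221 of 320 aligned positions (69.1%), while Cyp3a9 and Cyp3a18 shared 53.0%. The Cyp2u1 promoter held GCGTG at -58 and -34 and AGGTCA at -10, and in the Cyp4b1 promoter none of the 3 motifs matched. Such short motifs are common: of 33469 rat promoters of this length, 29.7% held GCGTG, 16.2% AGGTCA, 14.5% AGTTCA and 27.9% either hexamer. Of 48 member symbols, 41 had a promoter, of which 16 held GCGTG and 17 a hexamer. Of the 8 matched symbols that rose, 1 held GCGTG and 4 a hexamer, and of the 3 matched symbols that fell, 2 held GCGTG and 2 a hexamer. A symbol with several promoters, such as Gsta3, counted if any of them matched, whereas the shares over all promoters are per promoter.

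Enzymes that act on fatty acids held the member with the highest rise. Cyp4b1 (chr5:134508730-134526089) is a P450 known for activating plant and mould toxins as well as for hydroxylating fatty acids. It had 357 to 1256 CPM (median 806) in D3M ileum, against 45.6 to 245 CPM (median 87.8) in ND ileum. All 6 D3M libraries lay above all 6 ND libraries, the highest of which was the mixed library of rat K4040. D1M libraries had 139 to 556 CPM (median 222), the highest being rat K3988. This was a log2 fold change of 2.34 ± 0.59 (FDR 0.0211), and 3.04 (FDR 0.0139) without K4040. The FDR was 0.0503, 0.0581 and 0.0508 without ND rat K4028, D1M rat K3986 and D3M rat P780.

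Cyp2j4 (chr5:119546461-119564846), an arachidonic acid epoxygenase of the rat small intestine, had 211 to 375 CPM (median 325) in D3M ileum, against 150.2 to 207 CPM (median 159) in ND ileum. The groups did not overlap, although the lowest D3M library, from rat K3959, was close to the highest ND library. Its log2 fold change was 0.96 ± 0.15 (FDR 0.00244), and the call held in all 27 alternatives. Between D3M and D1M rats, whose libraries had 193 to 279 CPM (median 216), the log2 fold change was 0.50 ± 0.14 (FDR 0.0617).

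Cyp4f1, a leukotriene B4 hydroxylase, had 393 to 803 CPM (median 485) in D3M ileum, against 286 to 464 CPM (median 355) in ND ileum, with overlap. Its log2 fold change was 0.63 ± 0.18 (FDR 0.0315), but within flow cell 1, which held 4 D3M libraries and 1 ND library, the difference was -0.03. In flow cell 3, with 2 of each and the mixed library K4040 among the ND ones, it was 1.11. The call was lost without any 1 of 4 libraries: 0.51 (FDR 0.0934) without ND rat K4028, 0.61 (FDR 0.0759) without K4040, 0.57 (FDR 0.102) without D1M rat K3986 and 0.52 (FDR 0.0761) without D3M rat P762. The other Cyp4f members did not pass, with log2 fold changes from -0.26 for Cyp4f18 to 0.11 for Cyp4f6.

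Cyp2u1 (chr2:236414135-236431683), which hydroxylates long-chain fatty acids, went the other way. It had 6.56 to 10.7 CPM (median 7.62) in D3M ileum, against 10.9 to 15.9 CPM (median 12.4) in ND ileum. Every D3M library was below every ND library by a narrow margin, and D1M libraries, at 7.39 to 12.5 CPM, spanned the gap. Its difference of -0.67 ± 0.11 (FDR 0.00255, log2) was called in all 27 alternatives, at -0.57 to -0.92. Cyp4a1, another fatty acid hydroxylase, had 0.389 to 2.28 CPM in D3M and 0.877 to 4.33 CPM in ND libraries and was not called (FDR 0.274).

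Of the CYP2D enzymes, which act on many basic drugs, Cyp2d4 and Cyp2d5 rose by small amounts. Cyp2d4 had 169.9 to 232 CPM (median 199.7) in D3M ileum, against 116 to 163 CPM (median 145) in ND ileum, with no overlap between the groups. Its log2 fold change was 0.50 ± 0.12 (FDR 0.013), and 0.43 (FDR 0.0545) without D1M rat K3986. Cyp2d5 had 12.7 to 21.9 CPM (median 16.0) in D3M and 9.97 to 14.5 CPM (median 11.2) in ND libraries, which overlapped. Its log2 fold change was 0.57 ± 0.17 (FDR 0.0362), and the call was lost when any of 7 libraries was left out (ND rats K4028, K4038 and K4040, D1M rat K3986, D3M rats K3961, P762 and P780), at 0.46 to 0.59 with FDR 0.0517 to 0.123. Cyp2d1 and Cyp2d2 were not called (0.34 ± 0.21 and 0.38 ± 0.15).

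Sterol and steroid P450 enzymes mostly did not pass. The exception was Cyp27a1, the mitochondrial sterol hydroxylase of the acidic route of bile acid synthesis, with 65.2 to 118 CPM (median 86.8) in D3M ileum, against 39.1 to 69.3 CPM (median 47.4) in ND ileum. A single ND library reached into the D3M range, that of the mixed library K4040. It rose by 0.82 ± 0.20 on the log2 scale (FDR 0.0168), and the value was 0.73 (FDR 0.0655) without D1M rat K3986. Cyp17a1, a hydroxylase of androgen and cortisol synthesis, was at 199.5 to 380 CPM (median 323) in D3M ileum and at 211 to 327 CPM (median 285) in ND ileum, so that the ND range lay inside the D3M range, with a log2 fold change of 0.03 ± 0.19 (FDR 0.937). Cyp11a1, the cholesterol side-chain cleavage enzyme, had 0.836 to 3.01 CPM in D3M and 1.93 to 4.48 CPM in ND libraries (-0.95 ± 0.41, FDR 0.133).

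Cyp1a1 (chr8:62472095-62478147), which oxidises polycyclic aromatic compounds, varied widely within groups. It had 14.8 to 98.8 CPM (median 63.7) in D3M ileum, against 0.919 to 117 CPM (median 2.09) in ND ileum. Of the ND libraries 4 lay at or under 2.31 CPM, K4047 was at 22.5 CPM, and the mixed library K4040 was above every D3M library. D1M libraries had 4.6 to 62.8 CPM (median 14.1). With all libraries the log2 fold change was 1.69 ± 1.43 (FDR 0.454), and without K4040 it was 4.96 (FDR 0.00893). It was 0.18 (FDR 0.952) without D1M rat K3986, 0.96 (FDR 0.673) without ND rat K4048 and 2.39 (FDR 0.409) without D3M rat P762. In colon the same gene had 11.5 to 154 CPM (median 27.1) in D3M, 13.6 to 30.6 CPM (median 24.7) in D1M and 0.71 to 57.2 CPM (median 14.7) in ND libraries, with overlap throughout. The lowest of these values, 0.71 CPM, came from K4040, and why the ileum library of that rat was so high was not tested.

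Conjugating enzymes moved in both directions. Ugt2a1 (chr14:22192970-22619968), a glucuronosyltransferase first described in olfactory epithelium, had 0.585 to 3.55 CPM (median 0.873) in D3M ileum, against 6.18 to 19.2 CPM (median 7.04) in ND ileum. All D3M libraries and all D1M libraries, which had 0.606 to 5.69 CPM (median 1.77), lay below all ND libraries. The log2 fold change was -3.36 ± 0.62 (FDR 0.0045) for D3M, and -2.79 (FDR 0.0163) without the mixed library K4040. For D1M against ND it was -2.61 ± 0.61, which did not pass (FDR 0.339).

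Ugt1a5, whose row spans chr9:95161157-95302822 and overlaps the antisense gene Dnajb3, may hold reads of several Ugt1a forms. It had 1129 to 1815 CPM (median 1323) in D3M ileum and 871 to 1271 CPM (median 1025) in ND ileum, overlapping, and was not called (0.38 ± 0.15, FDR 0.109), except with no flow cell term (0.43, FDR 0.0274) and without ND rat K4048 (0.54, FDR 0.0391). Ugt2b10 had 25.5 to 82.6 CPM in D3M and 17.3 to 66.5 CPM in ND libraries and a log2 fold change of 0.02 ± 0.30.

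Sult1b1, which sulfates phenols and thyroid hormones in the gut, had 173 to 272 CPM (median 238) in D3M ileum, against 82.1 to 198 CPM (median 117) in ND ileum. The only ND library inside the D3M range was the mixed library K4040. The log2 fold change was 0.68 ± 0.20 (FDR 0.0332), and the call was lost when any of 5 libraries was left out (ND rat K4028, D1M rat K3986, D3M rats K3961, P762 and P780), at 0.52 to 0.69 with FDR 0.0536 to 0.101. Sult1c2a fell slightly, with 4.67 to 7.43 CPM (median 6.63) in D3M and 5.49 to 8.85 CPM (median 7.97) in ND libraries (-0.59 ± 0.18, FDR 0.0464), and Sult1a1, the main phenol sulfotransferase, did not pass (-0.18 ± 0.31, FDR 0.736).

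Gsta3, an alpha-class glutathione transferase, had 60.5 to 84.8 CPM (median 67.5) in D3M ileum, against 70.1 to 100.2 CPM (median 89.9) in ND ileum. The groups overlapped, with a log2 fold change of -0.52 ± 0.17 (FDR 0.0473). The calls of Gsta3 and Sult1c2a were the least steady, held in 7 and 10 of the 27 alternatives. They were lost without any of 14 and 12 of the 18 libraries, with FDR up to 0.135 and 0.126. Over all 27 alternatives the FDR reached 0.191 and 0.332. All 5 alpha-class genes had negative log2 fold changes, from -0.26 for Gsta4 to -0.77 for Gsta1, and 4 of the 5 did not pass. Gsta1 and Gsta3 lie on opposite strands and overlap by 14643 bases, and since no source states whether counting used the strand, reads of one may have been counted for the other. The mu-class genes ranged from -0.38 for Gstm7 (FDR 0.0577) to 0.40 for Gstm6l (FDR 0.0839).

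**Figure D4:**
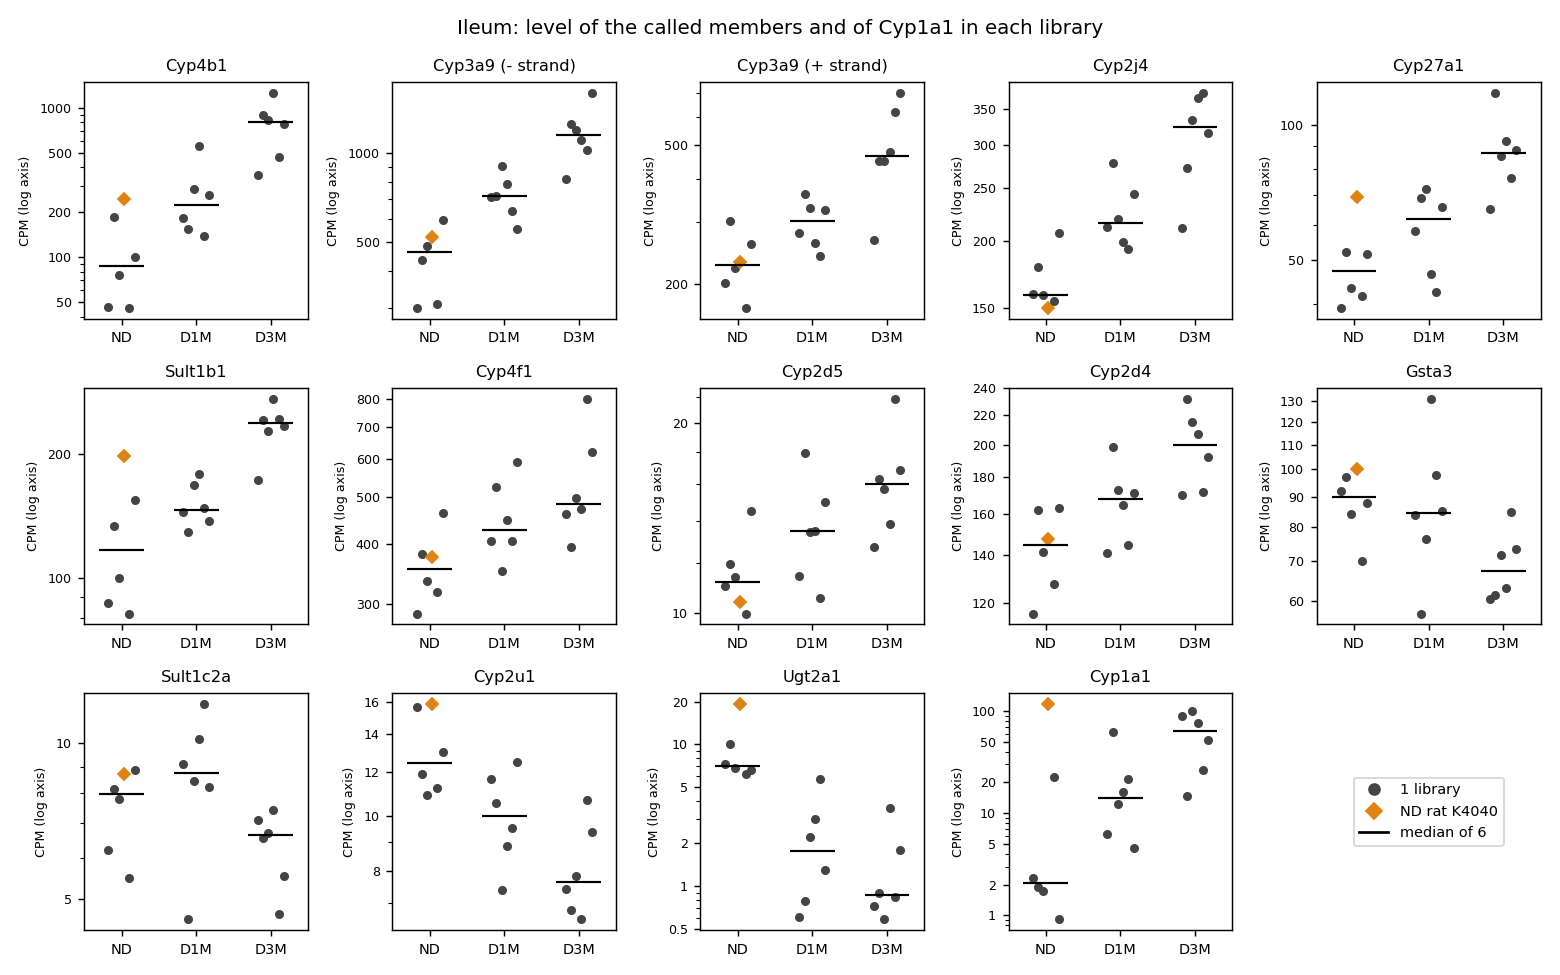
Level in each ileum library (points, CPM on a log axis that differs between panels) with the median of 6 libraries (lines) in ND, D1M and D3M rats, for the 13 called members and Cyp1a1. The 4 members that lie lower in D3M end the second row and begin the third, Cyp4b1 medians are 87.8, 222 and 806 CPM in ND, D1M and D3M, and the orange diamond marks ND rat K4040.

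The flow cell was not balanced between the groups in either tissue. In colon, flow cell 1 held ND and D1M libraries but no D3M library. In ileum, flow cell 1 held 4 D3M libraries and 1 ND library, flow cell 3 held 2 of each, and flow cell 2 held 3 ND libraries, 1 D1M library and no D3M library. The 2 ND libraries of flow cell 3 were those of K4028 and the mixed K4040. Differences within flow cell 3 therefore rest in part on K4040 and were not computed without it. Within flow cells 1 and 3 separately, all 4 members that fell kept their direction in both, as did 8 of the 9 that rose, Cyp4f1 being the exception. These members were chosen by a fit to the same libraries with the flow cell in the model. Agreement in direction was thus largely set by the choice and is given as a description. The same share over all genes called was not computed. The difference in flow cell 1 and in flow cell 3 was 2.92 and 2.51 for Cyp4b1, 0.87 and 1.70 for the minus-strand Cyp3a9, 0.49 and 1.15 for Cyp2j4, -0.82 and -0.63 for Cyp2u1, and -2.09 and -2.82 for Ugt2a1, as differences of mean log2(CPM + 0.5). For Cyp2d5 it was 0.01 in flow cell 1 and 0.81 in flow cell 3.

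Between the diabetic stages fewer members passed. For D3M against D1M in ileum 1 of 48 members was called, the plus-strand Cyp3a9 gene, where 2.22% of all genes were called (1.93% higher, 0.292% lower), and 16 members (33.3%) had an unadjusted p under 0.05, beside 19.1% of all genes. DESeq2 called 7 of the 39 members to which it gave an adjusted p, and 8.99% of all such genes. For D1M against ND no member was called by edgeR or by DESeq2, where edgeR called 0.0154% of all genes, and 9 members (18.8%) had an unadjusted p under 0.05, beside 8.34% of all genes. The minus-strand Cyp3a9 gene had log2 fold changes of 0.68 ± 0.19 (FDR 0.067) for D3M against D1M and 0.65 ± 0.20 (FDR 0.406) for D1M against ND. Sult1c2a had -0.56 ± 0.15 (FDR 0.068) and Cyp4b1 1.45 ± 0.48 (FDR 0.118) for D3M against D1M.

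In colon no member was called by edgeR in any comparison. For D3M against ND, where edgeR called 0.0155% of all genes, 6 of 41 members tested (14.6%) had an unadjusted p under 0.05, beside 1292 of all 12906 genes (10.0%). DESeq2 called 1 member, Cyp2c24, and 0.558% of all genes. For D3M against D1M the unadjusted p was under 0.05 in 4 members (9.76%), beside 5.28% of all genes, and for D1M against ND in 3 members (7.32%), beside 4.66%. DESeq2 called no member in either, and edgeR called 0% of all genes in both. Cyp27a1 had 111 to 149.8 CPM (median 124) in D3M colon, against 63.9 to 101 CPM (median 91.6) in ND colon. These libraries did not overlap, and the log2 fold change of 0.58 ± 0.16 did not pass (FDR 0.272). Cyp2c24 had 673 to 2163 CPM (median 922) in D3M and 381 to 1105 CPM (median 684) in ND colon, overlapping, at 0.97 ± 0.26 (FDR 0.272). Cyp4b1 had 232 to 347 CPM in D3M and 114 to 401 CPM in ND colon (0.60 ± 0.30, FDR 0.516). The minus-strand Cyp3a9 gene had 115 to 143 CPM in D3M and 60.7 to 298 CPM in ND colon (-0.10 ± 0.35, FDR 0.946), and 0.32 (FDR 0.776) without the mixed library, which was its highest.

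Whether a change differed between the tissues was tested directly as colon minus ileum. For D3M against ND no member passed, where 1.56% of all genes were called, and 13 members (26.5%) had an unadjusted p under 0.05, beside 16.8% of all genes. DESeq2 called 4 of the 38 members to which it gave an adjusted p, and 4.77% of all such genes. The lowest FDR was 0.061, for Cyp3a18 (-3.38 ± 0.94), whose colon value rests on the mixed library of rat K4028: without the mixed libraries its difference was -1.38 (FDR 0.302). The difference was -1.48 ± 0.43 (FDR 0.0686) for the minus-strand Cyp3a9 gene and -1.78 ± 0.65 (FDR 0.147) for Cyp4b1, and -1.16 (FDR 0.24) and -2.53 (FDR 0.123) without the mixed libraries. For D3M against D1M no member passed (0% of all genes), 4 (8.16%) had an unadjusted p under 0.05, beside 8.31% of all genes, and DESeq2 called no member.

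The members differed far more between the tissues than between the groups. Of 49 members, 41 (83.7%) were called between colon and ileum, 15 higher and 26 lower in colon, where 73.2% of all genes were called, 38.7% higher and 34.5% lower. The median log2 fold change was -0.29, beside 0.03 over all genes. The rule for members bears on these counts, since 7 members reached 0.5 CPM only through ileum (Cyp2b2, Cyp2c22, Cyp2c23, Cyp4a1, Cyp4f37, Gsta2 and Ugt2a1) and were all lower in colon, and 1 only through colon (Cyp26a1), where it was higher. Of the 41 that reached it in both tissues, 33 (80.5%) were called, 14 higher and 19 lower, with a median of -0.18. That share is near the one over all genes. Of the 41, Gsta5 passed the limit in colon only through the mixed library of rat K4028, averaging 0.80 CPM with it and 0.48 CPM without it. Without the 2 mixed libraries 14 of the 49 were higher and 25 lower. Both tissues came from the same rats.

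Among the members lower in colon were the CYP3A genes, which reached the limit in both tissues, and 2 CYP2C genes, which reached it only in ileum, so that their direction came with the rule. Of these, Cyp2c23, an arachidonic acid epoxygenase in rat kidney, gave 1 count over the 18 colon libraries and 249 over the 18 ileum libraries, a ratio of 0.00491 with an exact 95% counting interval of 0.000124 to 0.0276. Cyp17a1 had 0.571 to 141 CPM (median 2.14) in colon, against 199.5 to 388 CPM (median 285) in ileum. Without the mixed library of rat K4028 the colon libraries ended at 3.73 CPM, and the log2 fold change was -5.98 ± 0.60 with it and -7.25 without it. Cyp3a18 had 0.216 to 42.9 CPM (median 1.13) in colon, against 44.3 to 149 CPM (median 85.3) in ileum, and its log2 fold change was -5.43 ± 0.49, or -6.37 without that library. Cyp2c22 (-4.73 ± 0.59, and -5.84 without K4028), Ugt2a1 (-4.37 ± 0.66, and -7.13) and Cyp4a1 (-4.12 ± 0.53, and -5.63) followed, all 3 of them members through ileum alone. In each the colon and ileum levels set beside each other were scaled separately, while the fold change comes from 1 fit over all 36 libraries.

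The minus-strand Cyp3a9 gene had 56.3 to 298 CPM (median 137) in colon, against 299 to 1597 CPM (median 714) in ileum (-2.42 ± 0.19, and -2.57 without the mixed libraries), and the plus-strand gene 87.0 to 202 CPM (median 135) in colon, against 171 to 700.3 CPM (median 291) in ileum (-1.34 ± 0.14, and -1.40). Cyp1b1, an enzyme of steroid and aromatic compound oxidation, was lower in colon (-3.29 ± 0.30, and -3.50 without the mixed libraries). So were Gsta5 (-4.02 ± 0.32, and -4.62), Gsta2 (-3.81 ± 0.43, and -4.34), a member through ileum alone, Cyp2d4 (-3.02 ± 0.19, and -3.26), Ugt2b10 (-1.35 ± 0.19, and -1.42) and Cyp2j4 (-0.81 ± 0.13, and -0.85). Without the mixed colon library Gsta5 too reached the limit only in ileum, so that its direction came with the rule. Markers of villus enterocytes were lower in colon in 7 of 7 genes, with a median of -5.10, and smooth muscle markers higher in 5 of 5, with a median of 1.17. Their part in the tissue differences was not tested.

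Cyp2c24 stood out among the members higher in colon. It had 381 to 2163 CPM (median 829) in colon, against 10.7 to 206 CPM (median 55.9) in ileum, and every colon library was above every ileum library. The log2 fold change was 3.81 ± 0.26 (FDR 1.73e-14), and 4.04 without the mixed libraries. Cyp11a1 (1.95 ± 0.18), Sult1a1 (1.31 ± 0.16), Gsta1 (1.04 ± 0.16), Cyp39a1 (1.02 ± 0.30), an oxysterol hydroxylase, and Cyp20a1 (0.96 ± 0.06), a P450 with no settled substrate, came next. Sult1a1 had 21.9 to 74.2 CPM (median 41.8) in colon, against 8.5 to 24.9 CPM (median 16.1) in ileum, and only the colon library of D3M rat P762 reached into the ileum range. The 8 members not called between the tissues were Cyp1a1, Gsta3, Cyp27b1, Cyp4b1, Cyp4f6, Ugt1a5, Sult1b1 and Cyp2s1. Ugt1a5, for example, had 955 to 1984 CPM (median 1333) in colon and 871 to 1815 CPM (median 1232) in ileum.

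**Figure D5:**
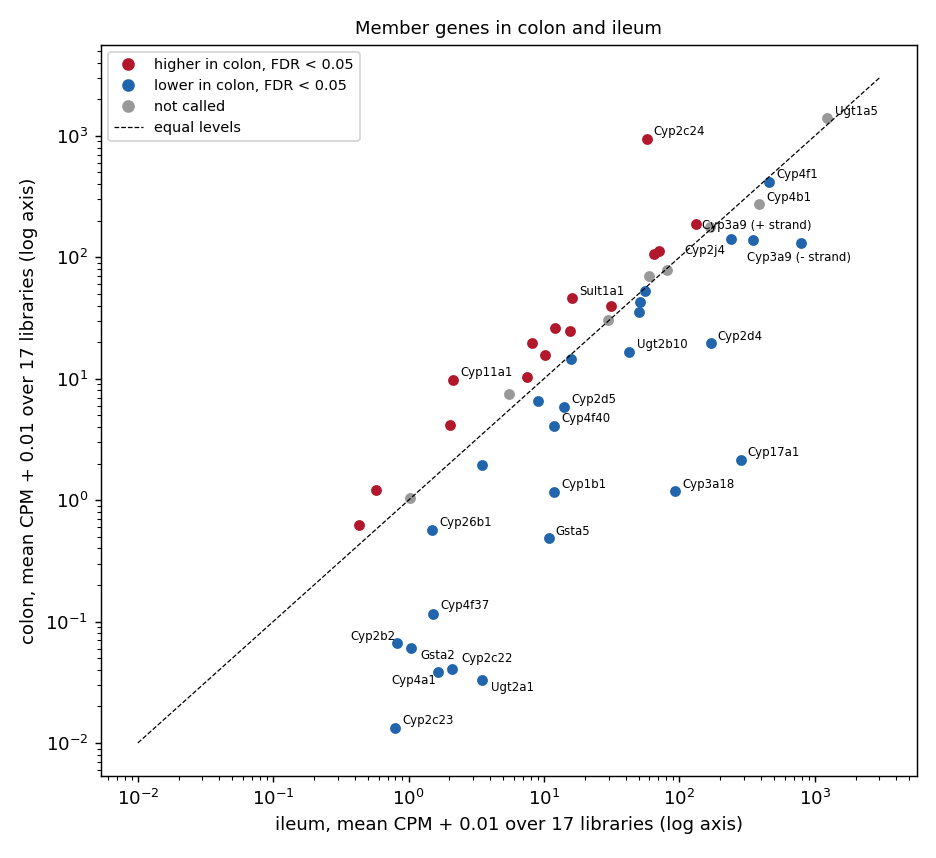
Mean level of each of the 49 members in colon (vertical) and ileum (horizontal), in CPM plus 0.01 on log axes over the 17 libraries of each tissue without the mixed one, with the line of equal levels. Red marks the 15 members called higher in colon, with Cyp2c24 farthest above the line, and blue the 26 called lower, with Cyp17a1 and Cyp3a18 far below it.

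The other genes of the pathway were read from lists of regulators, helpers and neighbouring enzymes. The shares called in these lists stand beside 8.31% of all genes higher and 4.22% lower, and counts this small are given as a description, with nothing particular to a list read from them. In D3M ileum against ND, 4 of 31 nuclear receptors and regulators (12.9%) rose and none fell, among them Ppard (0.35 ± 0.10), Nr1i3, the constitutive androstane receptor (0.74 ± 0.23, FDR 0.0477), and Hnf4a (0.32 ± 0.10). Without the mixed library K4040, an alternative chosen for these lists after seeing the data, none of the 31 was called. Nr1i2 (0.17 ± 0.13, FDR 0.4) and Ahr (-0.04 ± 0.16, FDR 0.881) did not pass. Of 14 measured genes of the PXR and CAR battery 2 rose, both of them the genes listed as Cyp3a9, with a median of 0.33, and none fell. Of 8 measured genes of the AhR battery none was called, with a median of 0.22, but Cyp1a1, which is on that list, was called without K4040 (4.96, FDR 0.00893). Both batteries contain members described above.

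Of 23 genes that supply electrons, haem or conjugation cofactors 3 (13.0%) rose and none fell. These were Papss2, which makes the sulfate donor of the sulfotransferases (1.25 ± 0.26), the sulfate transporter Slc26a2 (1.57 ± 0.44) and Ggt1, which breaks down glutathione (0.82 ± 0.19). Por did not pass (0.53 ± 0.19, FDR 0.0798). Of 18 drug transporters 4 (22.2%) rose and none fell, with the efflux pump Abcg2 at 1.04 ± 0.15 (FDR 0.00167), Abcc5 at 0.66 ± 0.12, Slc22a18 at 0.51 ± 0.11 and the peptide transporter Slc15a1 at 0.77 ± 0.17. Abcg2 averaged 1442 ± 299.9 CPM in D3M and 688 ± 109 CPM in ND ileum (SD, n = 6 each).

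Of 33 other oxidising, reducing and hydrolysing enzymes 4 (12.1%) rose and 1 (3.03%) fell. The aldo-keto reductases Akr1b10 (0.84 ± 0.14) and Akr1c14 (0.75 ± 0.15), the flavin monooxygenase Fmo5 (0.81 ± 0.18) and the aldehyde dehydrogenase Aldh2 (0.47 ± 0.11) rose, and the paraoxonase Pon3 fell (-0.66 ± 0.12). Of 23 other conjugating enzymes Mgst2 rose (0.42 ± 0.12) and the histamine methyltransferase Hnmt fell (-0.83 ± 0.13), with a median of -0.22. Of 8 deconjugating enzymes 2 rose, Sts (0.64 ± 0.19) and Ggt1, and Gusb, the glucuronidase, fell (-0.33 ± 0.10), and neither Sts nor Gusb was called without K4040. In colon no gene of these lists was called for D3M against ND.

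Of the 85 genes with the prefixes, 13 had no count in any of the 36 libraries, among them the liver P450 genes Cyp1a2, Cyp3a2, Cyp3a23/3a1, Cyp2c7 and Cyp2c13 and the glucuronosyltransferase Ugt2b7. A count of 0 over the 18 ileum libraries allows up to 0.00922 CPM (3 counts) and over the 18 colon libraries up to 0.0113 CPM, which covers counting error only. Cyp2e1 gave 3 counts in ileum and 2 in colon, and Cyp2c11 gave 3 in ileum and 36 in colon.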

How the data were processed

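From flash-frozen whole distal ileum and proximal colon, the authors made TruSeq stranded mRNA libraries, sequenced them on an Illumina NextSeq instrument, mapped the reads to the rat genome rn6 by means of STAR, and obtained a count for each gene with SeqMonk. STAR's version, the handling of multi-mapping reads and the use of strand in counting are not given in the sources used here. The deposited values used here are these unnormalised counts, for 24773 genes in 36 libraries. The authors' CPM table, computed from the same counts, was not used.

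Groups came from the labels. Counts were tested with edgeR 4.0.16 (R 4.3.3): filterByExpr, TMM, robust quasi-likelihood fits with flow cell in 3 levels, all 18 libraries of a tissue together, or all 36 for colon against ileum and for differences between tissues. P-values were adjusted by Benjamini-Hochberg over all genes tested. SE is the log2 fold change divided by the root of the F statistic. Within a tissue the libraries come from separate rats, so those p-values cover the spread between rats. In the fits over all 36 libraries each rat gave 2, which were treated as independent. Both tissues of a rat are paired by the rat ID in the labels: the correlation of the deviations of a rat's 2 libraries from their group means was over 0.1 in 6 of 18 rats (median -0.0311, range -0.518 to 0.764). No rat term is in the reported fit. Alternatives were DESeq2 1.42.0, other scalings and filters, and leaving out libraries. A term for each rat in edgeR was tried for colon against ileum, and the rat as a block in limma 3.58.1 for the differences between tissues.

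The members and lists were chosen with earlier results of these data known. Genes named are the members called in any group comparison or tissue difference, the 10 with the highest mean CPM in each tissue, the 6 highest and 6 lowest log2 fold changes between the tissues, well-known intestinal members, the 2 members above and 2 genes below the 0.5 CPM limit, and up to 4 called genes per list. Other members and genes named (such as Cyp2d2, Gstm6l, Ahr and Por) were chosen after their values were seen. Motifs were searched in RefSeq promoters (GRCr8). Fits were tested on simulated data. Member proteins were not compared here. The values of 1 called gene of the regulator list are not reported here.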

Additional observations from a re-analysis of the deposited data

Results flagged for a closer look

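In 215 group-by-tissue sets of 6 libraries over 39 named members, 23 held a highest or lowest library whose gap to its neighbour, as a share of the group's range, was above Dixon's critical value for 6 samples. Chance flags about 1 in 20 sets. Of the 23, 9 came from the 2 ND libraries of mixed tissue. In the colon of ND rat K4028 these were Cyp17a1 at 141 CPM, Cyp2d4 at 78.4 CPM, Cyp3a18 at 42.9 CPM, Ugt2a1 at 8.04 CPM, Gsta5 at 6.23 CPM and Cyp4a1 at 1.74 CPM, each the highest of its group. In the ileum of ND rat K4040 they were Cyp2c24 at 206 CPM, Cyp1a1 at 117 CPM and Ugt2a1 at 19.2 CPM. Between the tissues Cyp2c24 was called higher in colon, Cyp1a1 was not called and Ugt2a1 was called lower in colon.

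In the other ileum libraries, Cyp4b1 was at 556 CPM in D1M rat K3988, Cyp1a1 at 62.8 CPM and Gsta2 at 0.551 CPM in D1M rat K3986, Cyp2c22 at 5.23 CPM in D1M rat K3978, Cyp11a1 at 3.01 CPM in D3M rat K3959 and Cyp2d1 at 47.8 CPM in ND rat K4028. Gsta2 and Cyp2d1 were the lowest of their groups and the others the highest.

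In the other colon libraries of D3M rats, Cyp2c24 was highest at 2163 CPM in K3961, Cyp39a1 highest at 1.96 CPM in K3980, Sult1a1 lowest at 21.9 CPM in P762 and Sult1c2a lowest at 5.40 CPM in P780. In D1M rats Cyp2s1 was highest at 15.1 CPM in K3989 and Gsta5 highest at 1.36 CPM in K3978. In ND rats Cyp39a1 was highest at 2.85 CPM in K4037 and Gstm7 highest at 234 CPM in K4040.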

How the results depend on the processing

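For ileum D3M against ND, 13 members were called. The count was 4 with only the 2 groups compared (185 genes in all, against 1632) and 5 without the flow cell that holds no D3M library. It was 5 to 17 leaving out 1 library at a time: 5 without D1M rat K3986, 8 without ND rat K4028 and 17 without ND rat K4048. K3986 is the only D1M library of flow cell 2, so that without it the 3 ND libraries of that flow cell have no other group beside them in the fit. Cyp2j4, the minus-strand Cyp3a9, Cyp2u1 and Ugt2a1 were called in all 27 alternatives, the plus-strand Cyp3a9 in 26 and Gsta3 in 7. With only the 2 groups compared, the calls lost included Cyp4b1 (FDR 0.102), Cyp27a1 (FDR 0.105), Cyp2d4 (FDR 0.112), Cyp4f1 (FDR 0.155), Sult1b1 (FDR 0.166) and Cyp2d5 (FDR 0.181). DESeq2 called 17 members, and 18% of all genes with an adjusted p. All genes called numbered 3007 with no flow cell term and 561 without that flow cell. The count over all genes thus changed with the setting too, and a change in the count of members is not read as particular to them.

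For ileum D3M against D1M 1 member was called, beside 2.22% of all genes. The count was 7 with DESeq2, beside 8.99% of all genes with an adjusted p. It was 0 with no filter on low counts, 5 with only the 2 groups, 3 with a B cell score as a covariate and 6 on library totals (an alternative chosen after seeing the data). Leaving out 1 library it was 0 to 5 (5 without D3M rat K3959, 4 without ND rat K4048). For colon D3M against ND, where 0 were called, it was 1 with DESeq2 (Cyp2c24, beside 0.558% of all genes) and 2 with only the 2 groups (Cyp2c24 and Cyp27a1). For the difference between tissues in D3M against ND, where 0 were called, it was 4 with DESeq2, beside 4.77% of all genes with an adjusted p. It was 4 with no flow cell term, 2 on library totals, and 0 to 4 leaving out 1 library (4 without the ileum library of ND rat K4048). The remaining counts stayed at 0, and colon against ileum at 38 to 41, when 1 library was left out. Where no share of all genes stands beside a count here, the count is not read as particular to the members. The cause of these changes was not tested except where the setting itself changes the libraries.

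With a term for each rat in edgeR, 38 members were called between colon and ileum (13 higher, 25 lower), all 38 among the 41 of the reported fit. With the rat as a block in limma, 0 were called in both differences between tissues. The share of all genes called in these fits is not given here. They ended no call besides the 3 lost between colon and ileum. The log2 fold change of Ugt1a5 for ileum D3M against D1M was 0.10 and turned to -0.039 on library totals.

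Levels under 1 CPM rest on few counts: Cyp2c23 had 249 counts over 18 ileum libraries. With 6 libraries a group, differences as small as those of Gsta3 and Sult1c2a passed only in some settings.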
